A study of Homo sapiens with 3 samples.

Results

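Transcript levels were followed for 10 genes of the BCL2 family, BCL2L11, BBC3, BID, PMAIP1, BIK, BAX, BAK1, MCL1, BCL2L1 and BCL2, taken by exact gene symbol from tables of 58243 genes. The tables came from human LoVo-labelled cells (LoVo is a line from a colorectal carcinoma) in which a Tet-On hairpin, switched on by doxycycline, targets HRD1, the endoplasmic reticulum (ER) ubiquitin ligase encoded by SYVN1. The cells had received 1 µg/ml doxycycline for 0, 3 or 5 days, and 1 library was sequenced at each time, so the 3 groups shared the hairpin and differed in the time on doxycycline. The study asks how loss of HRD1 and the ER stress that follows alter the cells, and the genes described here decide between survival and death under such stress. No library with a control hairpin was among the 3, so effects of doxycycline, of time in culture and of the knockdown cannot be told apart, and whether the line is 1 clone is not given in the sources used here.

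BCL2 family proteins control whether the outer mitochondrial membrane opens and releases cytochrome c. Guardians (MCL1, BCL2L1, which encodes BCL-XL, and BCL2) hold the effectors BAX and BAK1 in check, whereas BH3-only proteins such as BIM (BCL2L11), PUMA (BBC3), BID, NOXA (PMAIP1) and BIK bind guardians or activate effectors. In ER stress the PERK branch of the unfolded protein response raises ATF4 and CHOP, which are known to act on transcription of several BH3-only genes, and much of the family is also controlled after transcription, by cleavage of BID, by rapid turnover of MCL1 protein and by movement of BAX to mitochondria. The measurements here are of RNA only.

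The libraries held 21308785 total gene reads at day 0, 22068686 at day 3 and 25754188 at day 5. SYVN1 held 1212 reads before doxycycline, 650 at day 3 and 709 at day 5, a log2 ratio of -0.88 [-1.02, -0.74] at day 3 over day 0 and of -1.05 [-1.19, -0.92] at day 5 over day 0. With 1 library per time no difference had a replicate check and no p-value was computed. Each ratio compares libraries, after scaling with TMM factors (a library-size correction computed from all genes). Square brackets hold 95% intervals that cover counting error only. They are exact except for the sums by role and the ratios between members, where they are normal approximations. Of the epithelial marker list, 3 of 10 genes reached 1 TPM (a level corrected for transcript length and library size) in each library, KRT8, KRT18 and KRT19, and the list summed to 1331, 1415 and 1298 TPM at day 0, day 3 and day 5. CDX2, the intestinal transcription factor, had 0 reads in all 3 libraries and EPCAM had 17, 14 and 19 reads, while 6, 6 and 7 of 10 mesenchymal markers reached 1 TPM and VIM, the mesenchymal filament, stood at 4016, 4130 and 3588 TPM, so the labelled colon epithelial origin was not borne out by these markers. Of 6 leukocyte markers, 1, 1 and 3 reached 1 TPM, and the list of 8 liver and blood markers held 3, 16 and 485 reads at day 0, day 3 and day 5, the last led by FGB with 122 reads and ALB with 114. The day 5 library thus carried more reads of genes foreign to the labelled cells than the others, and the part of these RNAs in the differences below was not tested.

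BCL2L1 and MCL1, both guardians, were the most abundant members, and the BH3-only genes spanned the widest range of levels. BCL2L1 had 597 TPM at day 0, 564 TPM at day 3 and 555 TPM at day 5, above 98.2%, 98.0% and 98.0% of the 12593 genes with a mean of 50 reads or more. MCL1 followed with 259, 253 and 265 TPM. BCL2, the founding guardian, had only 5.32, 5.32 and 6.51 TPM, so that the summed level of these 3 guardians consisted almost wholly of BCL2L1 and MCL1 transcripts. BCL2L2, a guardian outside the 10 members, had 43.8, 43.4 and 43.2 TPM, with 5.35% of its reads uniquely placed. Below MCL1 came BAK1 with 111, 107 and 119 TPM, PMAIP1 with 94.6, 90.6 and 122.7 TPM, and BAX with 87.0, 97.9 and 86.6 TPM at day 0, day 3 and day 5. BAK1, PMAIP1 and BAX changed order between libraries, BAX standing above PMAIP1 at day 3 and PMAIP1 above BAK1 at day 5. BID had 40.6, 38.3 and 38.8 TPM. BCL2L11, BBC3 and BCL2 formed a low tier between 5.32 and 8.65 TPM, within which the order again changed between libraries. BIK was barely detected, with 8, 15 and 16 reads, or 0.638, 1.57 and 1.56 TPM, and with a mean of 13 reads it stayed under the minimum of 50, so ratios are given for 9 of the 10 members.

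**Figure D1:**
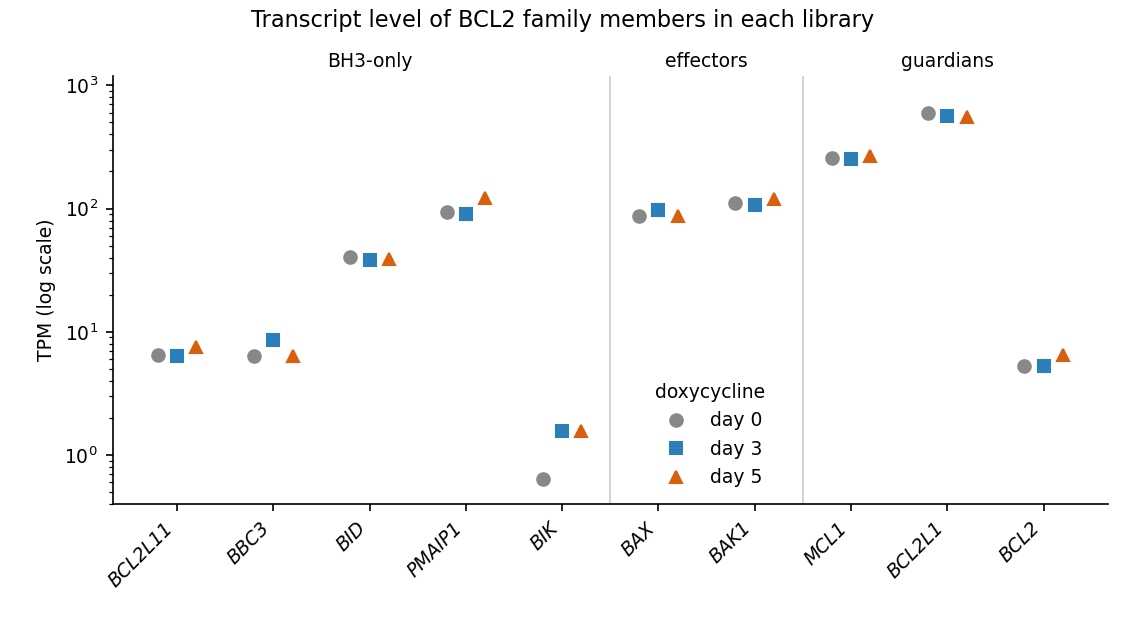
Level of each member in TPM (log axis) in the library of each time, ordered by role, with 1 point per library and no replicates. BCL2L1 and MCL1 lie highest, from 253 to 597 TPM, PMAIP1, BAX and BAK1 lie between 86.6 and 122.7 TPM, and BIK reaches at most 1.57 TPM.

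Promoter sequences are shown for PMAIP1, BBC3 and BAX, the 3 measured members with the largest ratios over day 0, because stress factors act through such sequences. RefSeq windows on GRCh38.p14, from 250 bases before to 50 bases after a transcript start, were found for 8 of the 10 members, in 13 windows. The 4 motifs searched on both strands were the cyclic AMP response element core TGACG, bound by CREB and ATF proteins; the E-box CACGTG, a palindrome counted once, bound by MYC and USF proteins; the CHOP-ATF4 composite element TGATGNAA; and the ER stress response element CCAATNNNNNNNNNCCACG. TGACG and CACGTG can overlap by sharing letters. Capitals mark TGACG, read on the opposite strand as CGTCA, in PMAIP1 and the E-box in BBC3 and BAX.
PMAIP1, chr18:59899746-59900045, plus strand: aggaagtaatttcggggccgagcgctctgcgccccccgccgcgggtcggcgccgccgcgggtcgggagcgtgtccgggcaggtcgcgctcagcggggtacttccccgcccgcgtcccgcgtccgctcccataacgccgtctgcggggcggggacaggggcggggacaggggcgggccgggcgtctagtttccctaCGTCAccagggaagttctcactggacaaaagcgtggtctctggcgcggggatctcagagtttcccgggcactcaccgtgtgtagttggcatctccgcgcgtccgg
BBC3, chr19:47232618-47232917, minus strand: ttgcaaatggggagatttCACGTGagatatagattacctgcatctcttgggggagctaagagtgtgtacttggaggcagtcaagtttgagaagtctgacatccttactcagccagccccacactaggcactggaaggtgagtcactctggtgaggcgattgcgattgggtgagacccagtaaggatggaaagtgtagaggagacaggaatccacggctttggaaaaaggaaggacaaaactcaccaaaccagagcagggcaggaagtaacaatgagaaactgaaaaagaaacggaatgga
BAX, chr19:48954625-48954924, plus strand: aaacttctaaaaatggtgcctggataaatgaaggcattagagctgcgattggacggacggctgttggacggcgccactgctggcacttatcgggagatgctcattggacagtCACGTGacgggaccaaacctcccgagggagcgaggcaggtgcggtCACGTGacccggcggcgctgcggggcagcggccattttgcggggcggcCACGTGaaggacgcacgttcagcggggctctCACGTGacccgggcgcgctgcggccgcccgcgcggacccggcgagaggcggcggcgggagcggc
The PMAIP1 window held 1 TGACG, at -55 from the start, and 24.5% of all 34943 RefSeq windows of this length hold at least 1. The BBC3 window held 1 E-box, at -232, and 7.23% of all windows hold at least 1. The BAX window held 4 E-boxes, at -138, -93, -45 and -14, and also a TGACG at -134 that overlaps the E-box at -138. Windows with 4 or more E-boxes numbered 5 of 34943, or 0.0143%, a cut equal to the BAX count and so not set apart from it. Of the other members, BID had an E-box site, which lies in overlapping windows, and BCL2 and BCL2L1 each had 1 TGACG. No window of these 8 members held TGATGNAA, found in 3.62% of all windows, or the ER stress response element, found in 0.0773%. These matches describe the letters in the windows only.

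At day 3, by TMM-scaled total reads, BAX was the member with the clearest difference from day 0. BBC3 had the largest ratio on few reads, and the other members lay close to their day 0 values. After removal of trends on exon length and GC content, BCL2 had the largest ratio, 0.27, with BBC3 at 0.24 and BAX at 0.18. None of the 9 measured members was at least 1.5-fold higher or lower with an interval excluding 1, beside 1.29% of all 12593 genes higher and 2.53% lower by that rule. By the weaker rule that the interval of the ratio lies above 1 (above 0 on the log2 scale), 2 of 9 members counted (BAX and MCL1), beside 25.2% of all genes, and 0 of 9 lay below 1, beside 20.8% of all genes. The members' median log2 ratio was 0.08 and that of all genes was 0.01. The share of members above 1 was near that of all genes.

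At day 5, PMAIP1 was the member that stood furthest above day 0, BCL2 was modestly higher and BCL2L1 slightly lower. Again 0 of 9 members reached 1.5-fold in either direction, beside 1.75% of all genes higher and 1.28% lower. The interval lay above 1 for 3 of 9 members (PMAIP1, BCL2 and BAK1), beside 22.8% of all genes, and below 1 for 1 of 9 (BCL2L1), beside 22.4% of all genes. The median log2 ratio was 0.05 for the members and 0.01 for all genes.

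At day 5 over day 3, 0 of 9 members reached 1.5-fold, beside 2.28% of all genes higher and 0.969% lower. The interval lay above 1 for PMAIP1 alone, 1 of 9, beside 24.0% of all genes, and below 1 for 4 of 9 (BBC3, BAX, MCL1 and BCL2L1), beside 26.1% of all genes. The medians were -0.05 for the members and 0.00 for all genes. The comparisons over day 0 share the day 0 library, so their values for a member are not independent of each other.

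**Figure D2:**
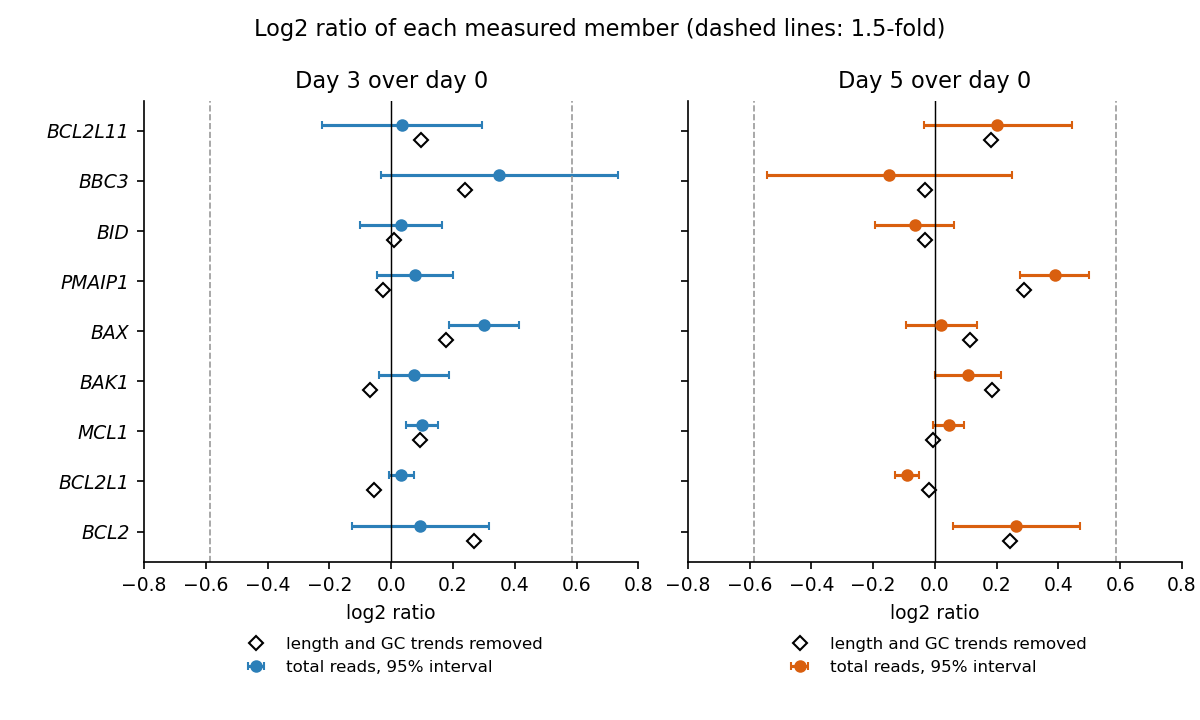
Log2 ratio of the 9 measured members at day 3 over day 0 (left) and day 5 over day 0 (right), as filled points with 95% exact intervals for counting error and as open diamonds after removal of the trends on exon length and GC content; dashed lines mark 1.5-fold. BAX at 0.30 (day 3) and PMAIP1 at 0.39 (day 5) are the points whose intervals lie furthest above 0, and every filled point lies within the dashed lines.

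Among the BH3-only genes, PMAIP1 and BBC3 differed in time. PMAIP1 (chr18:59899948-59904306, plus strand, GRCh38), whose product NOXA binds MCL1 above all, had 1073 reads at day 0, 1119 at day 3 and 1706 at day 5. Its log2 ratio was 0.08 [-0.04, 0.20] at day 3 over day 0 and 0.39 [0.28, 0.50] at day 5 over day 0, a 1.31-fold difference. At day 5 over day 3 it was 0.31 [0.20, 0.42], so the day 5 library stood apart from both others. The day 5 over day 0 ratio of PMAIP1 exceeded that of 94.8% of all measured genes. PMAIP1 transcripts have a low GC content, 43.6%, and over all genes the day 5 over day 0 ratio fell with GC content (Spearman rho -0.43 across 12487 genes). With the trends on length and GC content removed the PMAIP1 ratio was 0.29, above 92.6% of genes.

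The day 5 difference of PMAIP1 was larger in reads that cross exon junctions, which come from spliced RNA. Junction reads numbered 762 at day 5, against 412 at day 0 (log2 ratio 0.61 [0.43, 0.78]) and 416 at day 3 (0.57 [0.40, 0.75]). They made up 38.4% [35.5, 41.4] of PMAIP1 reads at day 0, 37.2% [34.3, 40.1] at day 3 and 44.7% [42.3, 47.1] at day 5. The median gene moved the other way, in that its junction share fell by 2.04 percentage points at day 5 relative to day 0, and the gain of 6.27 points for PMAIP1 was higher than that of 96.4% of genes. Intron reads of PMAIP1 were few, 45 at day 5 against 29 at day 0 and 36 at day 3, and their log2 ratio at day 5 over day 0, 0.34 [-0.35, 1.08], was not detectable at this depth.

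BBC3 (chr19:47220822-47232766, minus strand), which encodes the stress-induced protein PUMA, had 104 reads at day 0, 131 at day 3 and 114 at day 5. Day 3 was the high library, with a log2 ratio of 0.35 [-0.03, 0.74] over day 0, whereas day 5 over day 0 was -0.15 [-0.54, 0.25], and neither difference was detectable at this depth. At day 5 over day 3 the ratio was -0.50 [-0.87, -0.12], lower than that of all but 1.83% of genes. With the trends removed it was -0.27, lower than that of all but 7.47% of genes, and its interval no longer excluded 0. Exon reads alone numbered 117 at day 3, against 79 at day 0, and gave 0.58 [0.16, 1.01], with an interval above 0. Intron reads made up 24.0% [16.2, 33.4] of BBC3 reads at day 0, 10.7% [5.97, 17.3] at day 3 and 14.9% [8.93, 22.8] at day 5. BBC3 transcripts are GC-rich, 64.5%, and the ratio at day 3 over day 0 with trends removed was 0.24.

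The total reads of the remaining BH3-only genes showed no detectable difference over day 0. BCL2L11 (chr2:111119378-111168447, plus strand), which encodes BIM and is known as a CHOP target, had 249 reads at day 0, 252 at day 3 and 348 at day 5. Its log2 ratios were 0.03 [-0.22, 0.29] at day 3 over day 0 and 0.20 [-0.04, 0.44] at day 5 over day 0, so that the upper bound at day 5 leaves room for a 1.36-fold difference. BID (chr22:17734138-17774770, minus strand), which links caspase 8 to mitochondria, had 920, 929 and 1068 reads, with log2 ratios of 0.03 [-0.10, 0.16] at day 3 and -0.07 [-0.19, 0.06] at day 5 over day 0. BID ran mostly to spliced reads, with junction shares of 79.9%, 79.4% and 74.9% at day 0, day 3 and day 5. Its junction reads alone, 800 at day 5 against 735 at day 0, gave -0.16 [-0.30, -0.01], in a comparison in which the junction share of the median gene also fell. For BIK (chr22:43110748-43129712, plus strand), an ER-resident BH3-only protein, 16 reads at day 5 and 15 at day 3 stood against 8 at day 0, with intervals of [-0.59, 2.15] and [-0.41, 2.37] on the log2 scale that allow either direction.

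The effectors differed in how far their reads could be trusted. All BAX reads were uniquely placed, and BAX (chr19:48954815-48961798, plus strand) had 1133 reads at day 0, 1379 at day 3 and 1397 at day 5. Its log2 ratio was 0.30 [0.19, 0.41] at day 3 over day 0, a 1.23-fold difference, 0.02 [-0.09, 0.14] at day 5 over day 0 and -0.28 [-0.39, -0.17] at day 5 over day 3. On the TMM scale BAX was thus high in the day 3 library alone. Junction reads gave much the same ratio at day 3 over day 0, 0.36 [0.21, 0.51], from 856 reads at day 3 against 674 at day 0. BAX is a short gene with 2587 bases of exon and 60.4% GC, and short genes ran higher at day 3 over day 0 (Spearman rho -0.38 with exon length across 12487 genes). With the trends removed its ratios were 0.18 at day 3 over day 0, 0.11 at day 5 over day 0 and -0.06 at day 5 over day 3, so the contrast between day 3 and day 5 shrank most.

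For BAK1 (chr6:33572547-33580293, minus strand) the sign of the ratio at day 5 over day 0 depended on which reads were counted. BAK1 had 1261 total reads at day 0, 1312 at day 3 and 1651 at day 5, and a log2 ratio of 0.11 [0.00, 0.21] at day 5 over day 0, but of -0.09 from uniquely placed reads with their own scaling. Uniquely placed reads made up 58.1% at day 0, 54.0% at day 3 and 49.97% at day 5. The reads that were not uniquely placed numbered 826 at day 5, against 528 at day 0, a log2 ratio of 0.36 [0.21, 0.53], while junction reads, of which at most 1 per library was not unique, numbered 803 at day 5 against 727 at day 0, or -0.14 [-0.28, 0.01]. BAK1 transcripts share 277 of 2257 stretches of 50 bases with the pseudogene BAK1P1, which had 1, 1 and 0 reads, and BAK1 lies within the span of GGNBP1 on the opposite strand (chr6:33540046-33589026), which had 8, 5 and 17 reads. Whether the extra BAK1 reads at day 5 came from BAK1 was not tested.

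MCL1 and BCL2L1 lay close to their day 0 values, on many reads. MCL1 (chr1:150574551-150579738, minus strand), a short-lived guardian, had 5628 reads at day 0, 5960 at day 3 and 7054 at day 5. Its log2 ratio was 0.10 [0.05, 0.15] at day 3 over day 0 and 0.05 [-0.01, 0.10] at day 5 over day 0. The upper bounds were 1.11-fold at day 3 and 1.07-fold at day 5, as far as counting error goes. On the authors' TPM with 0.5 added, the day 3 over day 0 ratio of MCL1 was -0.03, where the median of all genes was -0.08. The junction share of MCL1 was 18.7% [17.7, 19.8] at day 0, 18.2% [17.2, 19.2] at day 3 and 16.0% [15.2, 16.9] at day 5, a drop close to that of the median gene.

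BCL2L1 (chr20:31664452-31723989, minus strand), the most abundant member, had 10289 reads at day 0, 10405 at day 3 and 11748 at day 5. Its log2 ratio was 0.03 [-0.01, 0.07] at day 3 over day 0 and -0.09 [-0.13, -0.05] at day 5 over day 0, where the uniquely placed reads gave -0.13 and removal of the trends -0.02. Intron reads of BCL2L1 numbered 521 at day 0, 400 at day 3 and 614 at day 5, with a log2 ratio of -0.36 [-0.56, -0.17] at day 3 over day 0 beside 0.05 [0.01, 0.09] for exon reads. The intron share of the median gene was also lower at day 3, and the difference for BCL2L1, -1.22 percentage points beside a median of -0.712, was higher than that of 39.2% of genes. Of BCL2L1 reads, 76.2%, 77.0% and 73.3% were uniquely placed at day 0, day 3 and day 5. The antisense gene ABALON shares 1327 of the 3546 stretches of 50 bases in BCL2L1 transcripts (37.4%) and had 0 reads in all 3 libraries, and since nothing in the sources used here says that strand was used in counting, reads of the 2 genes cannot be told apart.

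BCL2 (chr18:63123346-63320128, minus strand), the guardian first known from lymphoma, had 330 reads at day 0, 348 at day 3 and 481 at day 5. Its log2 ratio was 0.26 [0.06, 0.47] at day 5 over day 0, a 1.20-fold difference, and 0.09 [-0.13, 0.32] at day 3 over day 0. With the trends removed the values were 0.24 at day 5 and 0.27 at day 3 over day 0, and -0.02 at day 5 over day 3, so that the order of day 3 and day 5 depended on this correction. The ratio at day 5 over day 0 stayed between 0.24 and 0.30 under all 7 other ways of scaling or counting. Exon reads, 464 at day 5 against 309 at day 0, gave 0.30 [0.10, 0.52], and intron reads numbered 17 at day 5 and 21 at day 0.

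**Figure D3:**
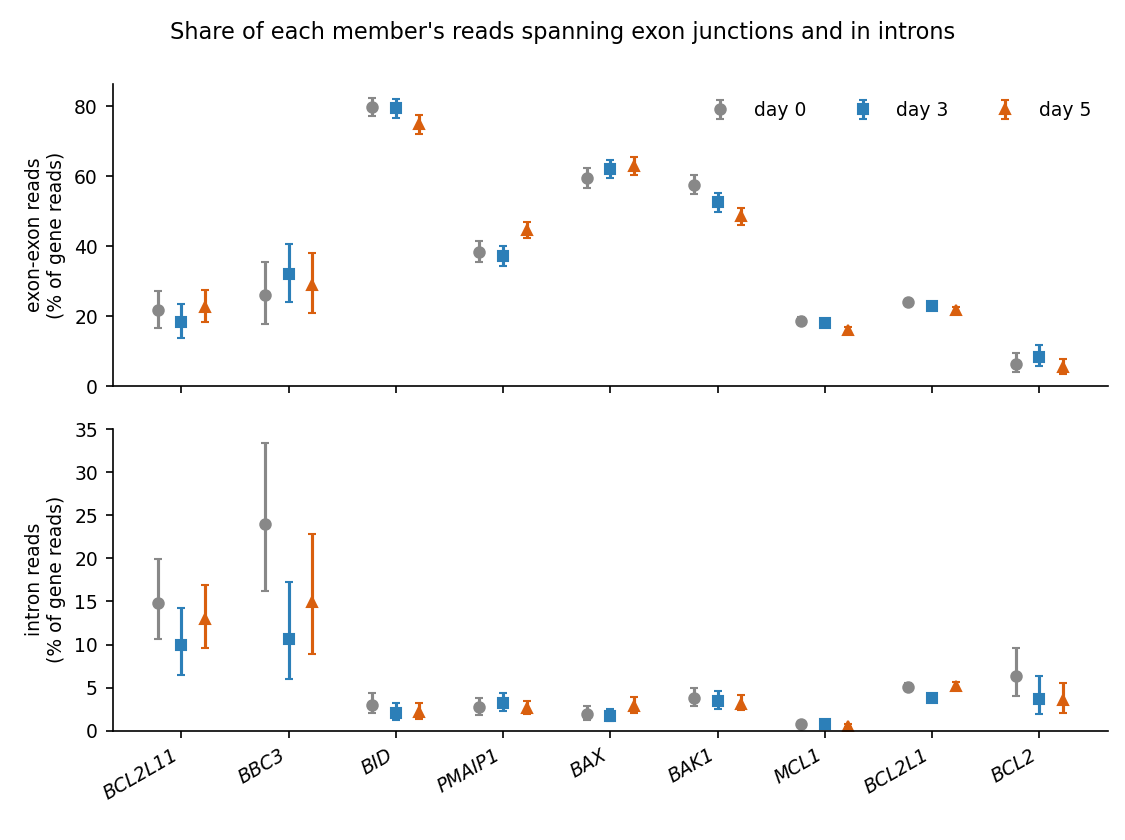
Share of each measured member's reads that cross an exon-exon junction (upper) and that fall in introns (lower), in percent of the member's total reads, with 95% exact binomial intervals for counting error. The junction share of PMAIP1 is highest at day 5 (44.7%), that of BAK1 is lowest there (48.6%), and the intron share of BBC3 is highest at day 0 (24.0%).

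**Figure D4:**
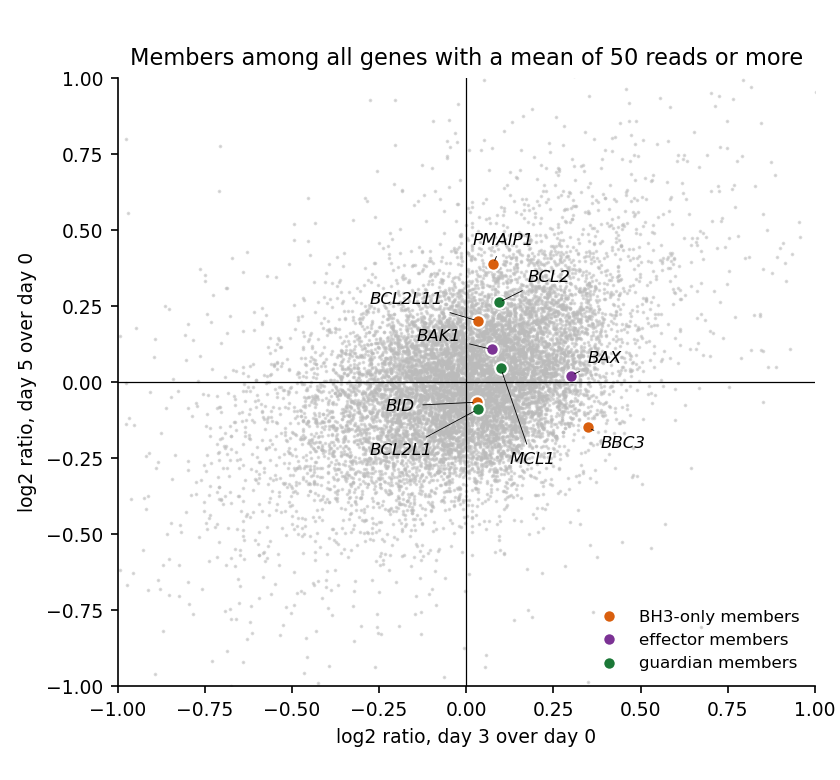
Log2 ratio at day 5 over day 0 (vertical) against day 3 over day 0 (horizontal) for the 12593 genes with a mean of 50 reads or more (grey, 128 of them outside the axes) and the 9 measured members (coloured by role). PMAIP1 lies towards the upper edge of the cloud at 0.39, BBC3 and BAX towards its right edge at 0.35 and 0.30, and the other members lie inside it.

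The genes closest to BBC3 and BAX in their pair of ratios over day 0 were sought over the 3 libraries, among 7423 protein-coding genes that averaged 200 reads or more, at least 90% of them uniquely placed. For BBC3 they included RPL13, which encodes a ribosomal protein, and MMP14, a membrane-bound matrix protease. RPL13 had log2 ratios of 0.35 at day 3 and -0.15 at day 5 over day 0, at a distance of 0.0056 from BBC3. For BAX they were RMND1 and NDUFA8, which encode mitochondrial proteins, and EIF6, a factor of ribosome assembly, with RMND1 at 0.30 and 0.02 and a distance of 0.0040. With 3 libraries a pattern has only 2 ratios, so close matches are easily found among so many genes.

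Summed by role over the 10 members, the guardian transcripts outweighed the pro-death transcripts in every library. The pro-death side weighed most at day 5. The 7 BH3-only and effector genes summed to 347 TPM at day 0, 350 TPM at day 3 and 383 TPM at day 5, while the 3 guardians summed to 861, 822 and 826 TPM. The ratio of the sums was 0.403 [0.390, 0.416] at day 0, 0.426 [0.413, 0.440] at day 3 and 0.463 [0.450, 0.477] at day 5. The intervals for counting error did not overlap between day 0 and day 5, but the trends on length and GC content were not removed from these sums. Removal of the trends moved the log2 ratio at day 5 over day 0 from -0.09 to -0.02 for BCL2L1 and from 0.39 to 0.29 for PMAIP1. It moved that of BAX from 0.02 to 0.11 and that of BAK1 from 0.11 to 0.18. Guardians made up 71.3%, 70.1% and 68.3% of the 10 genes' summed TPM, of which BCL2L1 alone made up 49.4%, 48.1% and 45.9%. PMAIP1 accounted for 7.83% at day 0, 7.72% at day 3 and 10.1% at day 5, the largest gain of any member. BH3-only genes as a group held 14.6% at day 5 and 12.3% at day 0, and effectors held 17.0% at day 5 and 16.4% at day 0. Family genes outside the 10 members were left out of these sums. On the pro-death side, BAD had 125, 134 and 141 TPM and BOK 46.8, 37.7 and 36.8 TPM at day 0, day 3 and day 5. The guardian BCL2L2 had 43.8, 43.4 and 43.2 TPM.

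Known binding partners, and the guardians BCL2 and BCL2L1, were also set against each other, as reads per kilobase of exon. PMAIP1 over MCL1 stood at 0.373 at day 0, 0.367 at day 3 and 0.473 at day 5, so that the ratio at day 5 was 1.27 times that at day 0 [1.17, 1.38]. BCL2L11 over BCL2L1 stood at 0.0120, 0.0121 and 0.0147, at day 5 1.22 times day 0 [1.04, 1.44]. BAX over BCL2L1 stood at 0.141, 0.170 and 0.152, at day 3 1.20 times day 0 [1.11, 1.31] and at day 5 1.08 times [0.994, 1.17]. BCL2 over BCL2L1, both guardians, stood at 0.00903, 0.00942 and 0.0115, at day 5 1.28 times day 0 [1.11, 1.47]. Such ratios are free of library scaling but not of trends on length and GC content. They compare RNA of whole cultures, in which a change in the kinds of cells and a change in RNA per cell cannot be told apart.

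**Figure D5:**
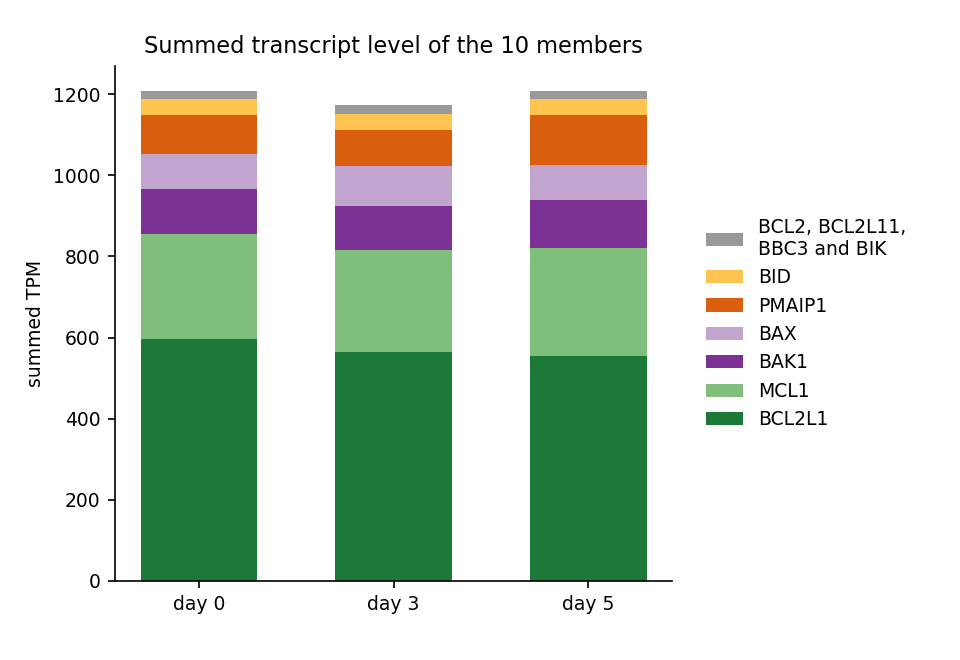
Summed TPM of the 10 members in each library, stacked from the base upward as BCL2L1, MCL1, BAK1, BAX, PMAIP1 and BID. BCL2, BCL2L11, BBC3 and BIK are pooled in the top block. The stack reaches 1208, 1173 and 1209 TPM at day 0, day 3 and day 5, the BCL2L1 block narrows and the PMAIP1 block is widest at day 5.

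Genes around the family were taken from 6 lists that hold 77 genes. Of 15 other BCL2 family genes, 9 were measured, and the interval lay above 1 for 4 and below 1 for 1 both at day 3 over day 0 and at day 5 over day 0. By the same rule, 25.2% of all genes lay above 1 and 20.8% below 1 at day 3 over day 0, and 22.8% above and 22.4% below at day 5 over day 0. BNIP3, a mitophagy receptor with a BH3-like region, was the only one past 1.5-fold. By that rule 1.29% of all genes were higher and 2.53% lower at day 3, and 1.75% higher and 1.28% lower at day 5. BNIP3 had 1527 reads at day 0, 2316 at day 3 and 2918 at day 5. Its log2 ratios were 0.62 [0.52, 0.71] and 0.65 [0.56, 0.74] over day 0 (0.62 and 0.68 with the trends removed). Its relative BNIP3L had 0.24 [0.13, 0.35] at day 5 (0.16 with the trends removed). BAD, a BH3-only protein held inactive by phosphorylation, had 0.24 [0.12, 0.36] at day 3 over day 0 (0.10 with the trends removed). MOAP1, a BAX-binding protein, had 0.19 [0.01, 0.36] at day 3 over day 0 (0.08 with the trends removed). BOK, a BAX-like protein turned over by ER-associated degradation, was lower, with 702 reads at day 5 against 780 at day 0, a log2 ratio of -0.43 [-0.58, -0.28]. With the trends removed the BOK ratio was -0.31.

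Among 18 caspase and apoptosome genes, all measured, the interval lay above 1 for 6 and below 1 for 5 at day 3 over day 0, and above 1 for 6 and below 1 for 1 at day 5 over day 0. The shares of all genes were 25.2% above and 20.8% below at day 3, and 22.8% above and 22.4% below at day 5. Of the initiator caspases, CASP2 had -0.31 [-0.48, -0.13] and CASP10 -0.38 [-0.75, -0.02] at day 3 over day 0, and CASP8 had 0.27 [0.14, 0.40] at day 5 over day 0. BIRC3, which encodes the inhibitor of apoptosis cIAP2, was the only one past 1.5-fold. That rule counted 1.29% of all genes higher and 2.53% lower at day 3, and 1.75% higher and 1.28% lower at day 5. BIRC3 had 243 reads at day 5, against 126 at day 0, a log2 ratio of 0.66 [0.35, 0.99]. With the trends removed the ratio was 0.51, under 1.5-fold.

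In the death receptor pathway 8 of 9 genes were measured, with 2 above 1 and 0 below 1 at both times, beside 25.2% of all genes above and 20.8% below at day 3, and 22.8% above and 22.4% below at day 5. FAS, the death receptor that signals to caspase 8, had the largest ratio of any measured gene on the 6 lists, 1.10 [0.60, 1.64] at day 5 over day 0, on few reads, 45 at day 0, 67 at day 3 and 118 at day 5. At day 3 over day 0 it had 0.59 [0.02, 1.17]. TNFRSF1A, a TNF receptor, had 0.17 [0.09, 0.24] at day 3, and TNFRSF10A, a TRAIL receptor, 0.10 [0.00, 0.20] at day 5. Of the adaptors, TRADD had 0.10 [-0.08, 0.28] at day 3 over day 0. FADD, with 53.2% of its reads uniquely placed, had -0.08 [-0.18, 0.02] at day 5 over day 0 from all reads and -0.16 [-0.30, -0.02] from uniquely placed reads.

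Of 12 genes for turnover of the family and for its mitochondrial partners, all measured, 4 lay above 1 and 2 below 1 at day 3 over day 0 (25.2% and 20.8% of all genes), and 6 above and 3 below at day 5 over day 0 (22.8% and 22.4% of all genes). HUWE1, a ubiquitin ligase of MCL1, was lower at both times, with -0.35 [-0.42, -0.29] at day 3 and -0.22 [-0.27, -0.16] at day 5 over day 0, although its transcript is long and the values with the trends removed were -0.13 and -0.15. FIS1 and PPIF, a mitochondrial fission factor and the pore regulator cyclophilin D, had 0.35 [0.26, 0.45] and 0.32 [0.25, 0.39] at day 3 over day 0, and 0.19 and 0.20 with the trends removed. MFN1 had 0.19 [0.08, 0.31] and MFF 0.18 [0.05, 0.31] at day 5 over day 0, and 0.06 and 0.11 with the trends removed.

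Of 13 genes that link ER stress to death, all measured, 6 lay above 1 and 2 below 1 at day 3 over day 0, beside 25.2% and 20.8% of all genes. The day 5 counts were 6 above and 4 below, beside 22.8% and 22.4% of all genes. CHAC1 and TRIB3, targets of the ATF4 and CHOP branch, had 0.67 [0.43, 0.92] and 0.52 [0.42, 0.62] at day 3 over day 0, and TRIB3 had 0.19 [0.09, 0.30] at day 5. DDIT3, which encodes CHOP, had 0.68 [0.50, 0.86] at day 3 and 0.40 [0.23, 0.58] at day 5 over day 0, but 0.44 and 0.09 from uniquely placed reads. The calcium channels ITPR2 and ITPR3 had -0.24 [-0.36, -0.13] and -0.23 [-0.27, -0.19] at day 5 over day 0, and ITPR2 had -0.49 [-0.62, -0.36] at day 3. With the length and GC trends removed, ITPR2 had -0.29 at day 3 and -0.31 at day 5, and ITPR3 had -0.11 at day 5. The channel ITPR1, named after its values were seen, had 0.22 [0.07, 0.37] at day 5 over day 0.

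Of 10 regulators of BH3-only transcription, all measured, 4 lay above 1 and 2 below 1 at each time over day 0, beside 25.2% and 20.8% of all genes at day 3 and 22.8% and 22.4% at day 5. None passed 1.5-fold, a rule that 1.29% of all genes passed above and 2.53% below at day 3, and 1.75% above and 1.28% below at day 5. ATF4 had 0.38 [0.33, 0.43] at day 3 over day 0. MYC, whose protein binds E-boxes, had 0.32 [0.23, 0.42] at day 3 and 0.37 [0.28, 0.46] at day 5. FOXO3, known to act on BCL2L11 and BBC3, had 0.26 [0.15, 0.38] at day 5, and FOXO1 had -0.33 [-0.66, -0.01] at day 3.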

How the data were processed

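RNA was extracted with RNAiso Plus and made into libraries with a SMARTer kit, per the labels' protocols. The authors' deposited tables give, per the file headers, unnormalized counts of reads per gene (total, unique, exon, exon-exon and intron), exon length and the authors' TPM. Neither the aligner nor the use of strand is given in the sources used here. The submitters' processing notes name the build mm10, yet identifiers are human: 56577 of the 57980 found in GENCODE 29 have its start and end, as do all 10 members, so coordinates are GRCh38. A table of the whole series (3 sample columns) was not used.

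Total gene reads were scaled with TMM factors of 1.01, 0.968 and 1.02 at day 0, day 3 and day 5 (edgeR 4.0.16, R 4.3.3). Log2 ratios used a prior count of 0.5 and exact conditional (Clopper-Pearson) 95% intervals (scipy 1.17.1), for genes that averaged 50 reads or more. Without molecular identifiers, intervals and the floor of 3 reads (0.139, 0.140 and 0.114 CPM) cover counting error only. Alternatives were library totals, DESeq2 1.42.0 size factors, TPM plus 0.5, unique reads, exon reads, a prior of 5, minimum means of 10, 200 or none, and removal of lowess trends (span 0.3, statsmodels 0.14.6) on exon length and GC content. The ratios and their intervals were tested on simulated counts that held counting error only, the error that the intervals assume. That simulation cannot speak to differences between libraries, trends on length and GC content or reads that were not uniquely placed. Named genes were all members, SYVN1, up to 3 genes per pathway list with the largest absolute ratio for each time over day 0, and the 3 genes nearest to each of 2 members; some genes this rule picks are not reported here. Members and lists were chosen with earlier results of these data known.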

Additional observations from a re-analysis of the deposited data

How the results depend on the processing

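No paired analysis was possible because each time had 1 library, and for the same reason no library could be left out in turn. The counts of members past 1.5-fold were 0 under every alternative that was run. At day 3 over day 0, library totals without TMM gave 1 member with an interval above 1 in place of 2, and removal of the length and GC trends gave 1 below 1 in place of 0. At day 5 over day 0, removal of the trends gave 0 members below 1 in place of 1. At day 5 over day 3, library totals gave 4 members above 1 and removal of the trends 3, in place of 1, and removal of the trends gave 1 below 1 in place of 4; the median was 0.068 on TPM in place of -0.05. The MCL1 ratio at day 3 over day 0 was -0.033 on TPM, and at day 5 over day 3 it was 0.020 with library totals and 0.068 on TPM. The BAK1 ratio at day 5 over day 0 was -0.094 from unique reads, and the BCL2L1 ratio at day 5 over day 3 was 0.040 with the trends removed. The balance of pro-death over guardian sums was 0.419 at day 0 and 0.477 at day 5 from unique reads per kilobase, and without BAK1 and BCL2L1 it was 0.893 at day 0, 0.942 at day 3 and 0.971 at day 5. At day 5 over day 3 the median of all genes was 0.075 with library totals and 0.088 on TPM, against 0.00 with TMM, so the median gene shifted too and MCL1 stayed below it. At day 3 over day 0 MCL1 stayed above the median of all genes, with -0.033 beside -0.082 on TPM and 0.10 beside 0.01 with TMM. The cause of the other changes was not tested. Ratios under 0.1 on the log2 scale are within what scaling moves, since the median of all genes at day 3 over day 0 was -0.08 on TPM and 0.01 with TMM. BBC3 and BIK are limited by depth.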

Other observations

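Among family genes with too few reads for a ratio, BMF, a BH3-only gene linked to the cytoskeleton, had 22 reads at day 5 and 4 at day 3, against 18 at day 0; it was named after its values were seen. HRK had 0 reads at day 5 and 1 at day 3, against 1 at day 0, and BCL2L10, an oocyte guardian in mammals, had 0 reads in all 3 libraries. BCL2A1, a guardian known from blood cells, had 3 reads at day 5 and 4 at day 3, against 3 at day 0. BCL2L2, which encodes BCL-W, had 1188 reads at day 5 and 1059 at day 3, against 1003 at day 0, but only 5.35% of them were uniquely placed, so its level is uncertain.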
